A study of Danio rerio with 10 samples.

Results

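The genes described here set the fate of pyruvate in the zebrafish heart: lactate dehydrogenases, the kinases that switch off the pyruvate dehydrogenase complex, and the catalytic subunits of that complex. Members were all probe sets whose single gene symbol in the array's probe-to-gene table began with ldha, ldhb, pdha1 or pdk followed by 1 to 4, or was pdhb or dlat. This gave 9 probe sets for 8 genes (ldha, ldhba, ldhbb, pdk2b, pdk4, pdha1a with 2 probe sets, pdhb and dlat) of 15617 probe sets on the array. All 9 passed the filter on low values and lay above the background bound of 27.7 intensity units on all 10 arrays.

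Pyruvate, the end product of glycolysis, is either reduced to lactate in the cytosol or carried into mitochondria and converted to acetyl-CoA by the pyruvate dehydrogenase complex. Lactate dehydrogenase is a tetramer of A and B subunits. The A subunit is the main form of skeletal muscle and a known target of hypoxia-inducible factor in mammals, and the B subunit is the main form of the mammalian heart, which takes up and oxidises lactate. Pyruvate dehydrogenase kinases phosphorylate the E1 alpha subunit and so switch the complex off, and in mammalian cells hypoxia-inducible factor raises the transcript of a member of this kinase family.

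The groups were hearts of zebrafish (Danio rerio) kept in hypoxia and hearts of zebrafish kept in normoxia, with 5 arrays each. In each group 4 arrays are labelled as biological samples, and array 5 repeats sample 2. The labels used here leave out strain, age, sex, oxygen level, time in hypoxia and how many hearts gave each RNA, and they do not say that samples came from separate fish, so p-values measure the spread between these samples. Hypoxia 1 and 4 (SD of log2 differences 0.112 over 2247 bright probe sets), like normoxia 3 and 4 (0.0927), were as alike as technical repeats (0.105 and 0.151). Each such pair was averaged into 1 sample, hypoxia 1/4 and normoxia 3/4, which left n = 3 per group. Median intensity per array ran from 36.2 to 51.6. The arrays were hybridised in 3 runs that each held both groups, and the wash records of run 3, with both repeat arrays, end in an abort.

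Markers for the labelled tissue were present. Of 7 measured heart muscle genes, 6 lay above the background bound on all 10 arrays, among them the myosin light chain gene myl7 and the cardiac transcription factor gene nkx2.5, while the transcription factor gene gata4 was above it on none. Markers of other cell types were present as well and differed between samples. The log2 of the summed intensity of 8 red blood cell genes was 14.33 to 14.61 in hypoxia against 14.08 to 14.15 in normoxia, that of 10 liver genes was 13.67 to 14.58 in hypoxia against 10.18 to 13.23 in normoxia, and that of 10 fast skeletal muscle genes was 12.68 to 13.12 in hypoxia against 12.73 to 13.88 in normoxia. The summed level of the 7 heart muscle genes was itself lower in hypoxia, at 14.79 to 14.86 against 14.93 to 14.98 log2 in normoxia. Their mean log2, in which gata4 under the background bound counts as much as the others, was higher, at 10.38 to 10.60 against 10.18 to 10.26. Of these genes the titin gene ttn.2 was called lower, at both of its tested probe sets (-1.10, adjusted p = 0.0132, and -0.56, adjusted p = 0.0175, from limma). The other tested ones ran from -0.02 (myl7) to -0.31 (nkx2.5) and were not called. The part of these shifts in the lower values of ldhba, pdk2b and the mitochondrial genes below was not tested. Levels below are log2 of quantile-normalized intensity plus 1. In such bulk samples fewer cells of a type and less RNA per cell cannot be told apart.

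Of the 9 member probe sets, 2 were lower in hypoxia at a Benjamini-Hochberg adjusted limma p under 0.05, those of ldhba and pdk2b. None of the 9 was higher at that threshold. Over all 10851 probe sets tested, 3.01% were called lower and 0.968% higher. At an unadjusted p under 0.05, 5 members were lower and 1 was higher, against 13.4% and 7.79% of all probe sets tested. The median difference over the members was -0.28 log2, against -0.05 over all probe sets tested, and 7 of 9 lay below 0, as did 56.9% of all tested. Groups did not overlap for 5 members that were lower in hypoxia and 1 that was higher, beside 17.3% and 9.96% of all probe sets tested. The share of all calls that were lower was 75.7%, and it was 58.3% for the deposited values, 90.4% under median scaling and 62.2% under cyclic loess.

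**Figure D1:**
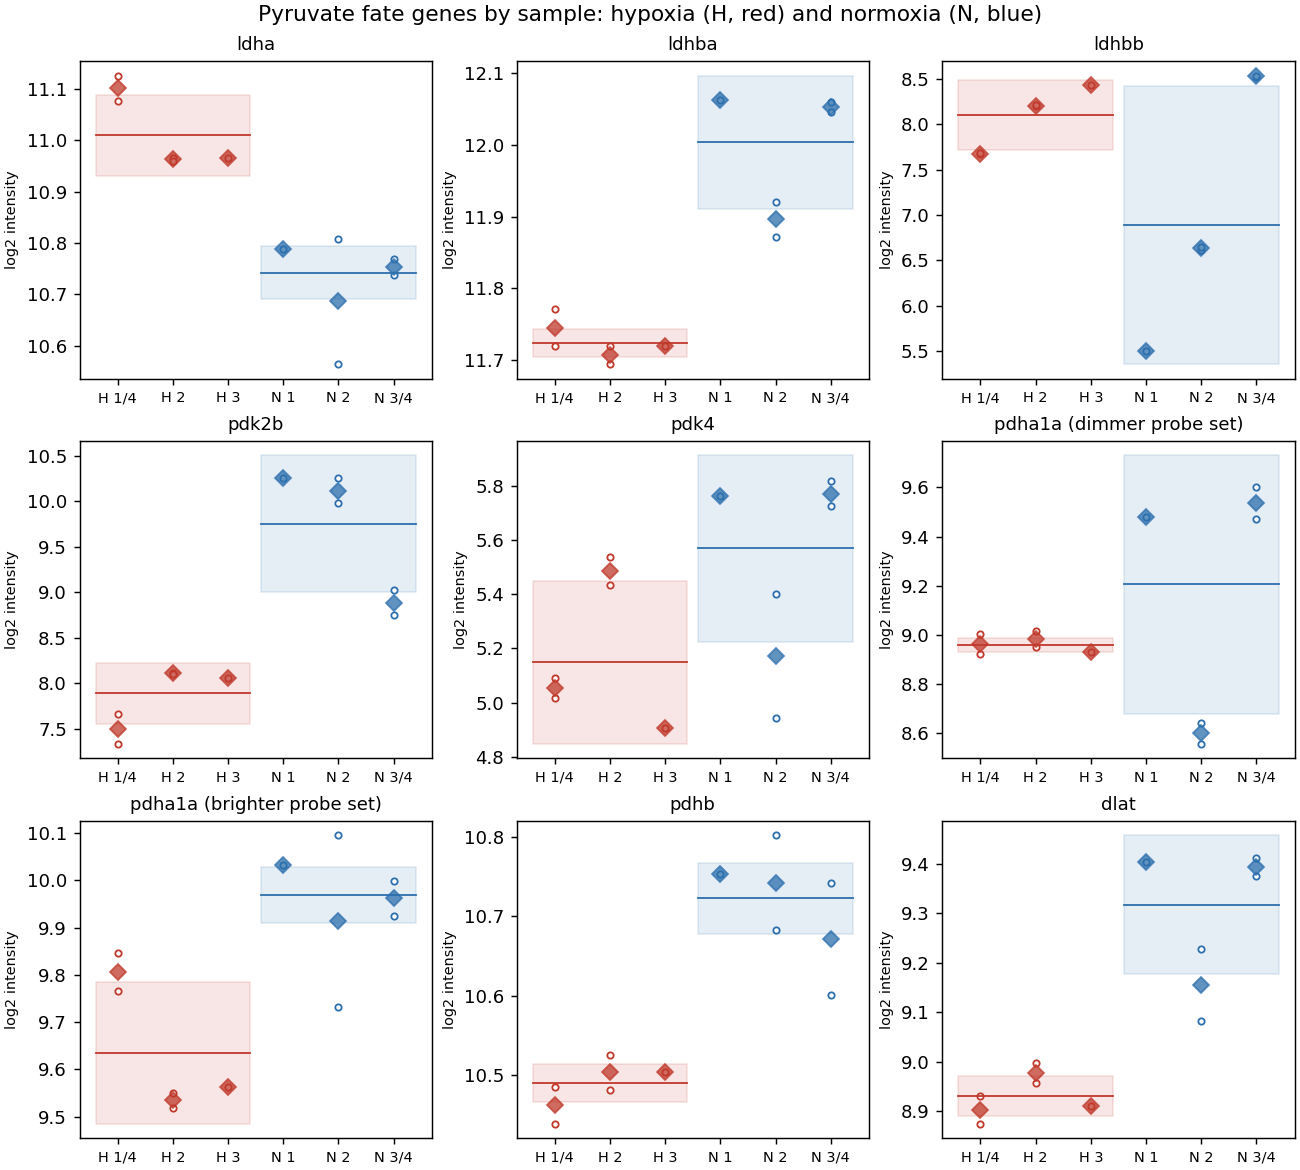
Log2 intensity (vertical axis) of each member probe set in the 3 counted hypoxia samples (H, red) and the 3 counted normoxia samples (N, blue). Diamonds are counted samples, open circles the arrays behind them, lines the group means and shaded bands 1 SD. By counted sample the groups are apart for ldha, ldhba, pdk2b, pdhb, dlat and the brighter pdha1a probe set. They overlap for ldhbb, pdk4 and the dimmer one of pdha1a.

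Among the lactate dehydrogenase genes ldhba fell in hypoxia, while ldha and ldhbb had positive differences that were not past the threshold. The A subunit gene ldha stood at 11.10, 10.96 and 10.97 log2 in hypoxia samples 1/4, 2 and 3, against 10.79, 10.69 and 10.75 in normoxia samples 1, 2 and 3/4. All hypoxia samples lay above all normoxia samples. This separation was not there in the deposited intensities, which were 1761 to 2272 on the 5 hypoxia arrays and 1543 to 2125 on the 5 normoxia arrays. After normalization the difference was 0.27 ± 0.06 log2 (SE, n = 3, 95% interval 0.12 to 0.42), a 1.20-fold higher mean, and was not past the threshold (adjusted p = 0.0702 from limma). Its size depended on the scaling, with 0.02 under median scaling, 0.09 for the values as deposited and 0.29 under cyclic loess. After quantile normalization the repeat arrays of sample 2 differed by -0.01 in hypoxia and -0.24 in normoxia. The normoxia repeats thus differed by nearly as much as the groups.

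The B subunit gene ldhba stood at 11.75, 11.71 and 11.72 log2 in hypoxia samples 1/4, 2 and 3, against 12.06, 11.90 and 12.05 in normoxia samples 1, 2 and 3/4. After quantile normalization the hypoxia samples sat within a narrow band below all normoxia samples. Hypoxia arrays 1, 2 and 3 received the same normalized intensity (3371) from deposited values of 3477, 3117 and 2890. The narrow band, and the SE that follows, thus belong to the normalized values. In limma ldhba fell by 0.28 log2 (n = 3, SE 0.06, 95% interval -0.41 to -0.15, adjusted p = 0.0463), which made normoxia 1.21-fold higher. In the deposited intensities, before any scaling, the 5 hypoxia arrays ranged from 2890 to 3490 and the 5 normoxia arrays from 3567 to 4707, so the arrays did not overlap either, although that fit did not call the gene (-0.38, adjusted p = 0.179). By hybridization run the difference was -0.25, -0.31 and -0.23 in runs 1, 2 and 3. The call was kept without normoxia 2 (adjusted p = 0.0473) and lost without hypoxia 1/4 (0.103), hypoxia 2 (0.102), hypoxia 3 (0.150), normoxia 1 (0.129) or normoxia 3/4 (0.111). It was also lost under cyclic loess (0.123), with a floor at the background bound (0.0704), with no filter on dim probe sets (0.110) and with no intensity trend (0.206). The difference was below 0 in all 19 alternative settings, but many of these could not change its direction. The floor, the filter and the trend leave the estimate as it is. Groups that do not overlap keep their direction when 1 sample is left out.

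Set against each other within a sample, ldha and ldhba separated the groups. The log2 ratio of ldha to ldhba, centred on the mean of the 6 samples, was 0.34, 0.24 and 0.23 in hypoxia samples 1/4, 2 and 3, against -0.29, -0.22 and -0.31 in normoxia samples 1, 2 and 3/4. The ratio was higher in hypoxia by 0.55 log2, a 1.46-fold difference, with SDs of 0.06 in hypoxia and 0.05 in normoxia (n = 3). An exact two-sided permutation test gave p = 0.1, the smallest value that 3 against 3 samples allow, and since ldha and ldhba each separated the groups in opposite directions this adds nothing to those results. A ratio within an array is not moved by a constant scaling. From the deposited intensities of single arrays, centred on the mean of 10 arrays, it was 0.12 to 0.33 on the 5 hypoxia arrays and -0.29 to -0.14 on the 5 normoxia arrays, and these samples differed by 0.47. By run the ratio differed by 0.47, 0.60 and 0.62 in runs 1, 2 and 3. Between the normalized repeat arrays of sample 2 it differed by 0.02 in hypoxia and -0.29 in normoxia. Such a ratio sets the changes of these genes against each other and does not say which of them changed. The red blood cell list (5 of 8 genes called higher) and the liver list (2 of 10 called higher) also had summed levels that were higher in every hypoxia sample, and the heart muscle list had lower ones. Their part in the ratio was not tested.

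**Figure D2:**
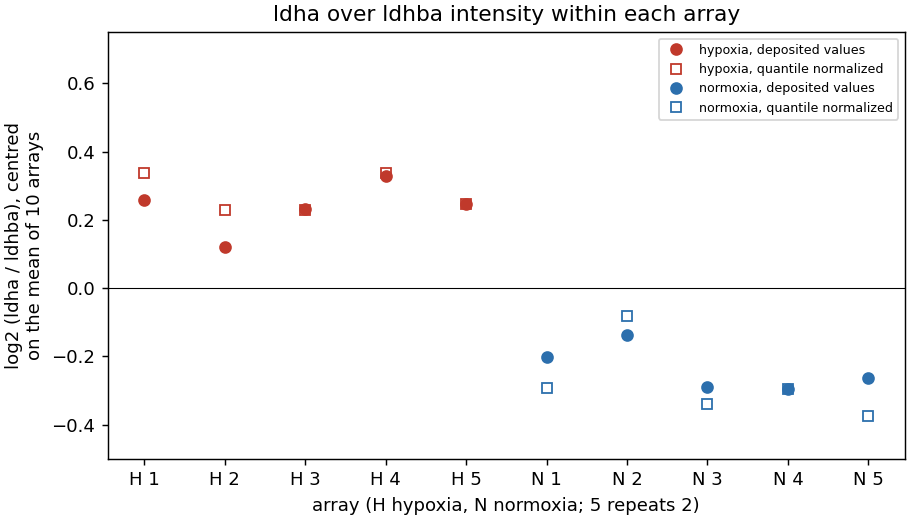
Log2 ratio of ldha to ldhba intensity on each of the 10 arrays (vertical axis, centred on the mean of the arrays), for deposited values (filled) and after quantile normalization (open). Hypoxia arrays (H, red) lie above 0 and normoxia arrays (N, blue) below 0 on both scales, including the repeat arrays H 5 and N 5.

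The second B subunit gene, ldhbb, varied more within normoxia than between the groups. It stood at 7.67, 8.21 and 8.43 log2 in hypoxia samples 1/4, 2 and 3, against 5.5, 6.63 and 8.53 in normoxia samples 1, 2 and 3/4. Normoxia 3/4 was above all hypoxia samples, so the groups overlapped. The difference was 1.22 ± 0.70 log2 (SE, n = 3, 95% interval -0.46 to 2.89, adjusted p = 0.376), and it was 0.52 without normoxia 1 and 2.04 without normoxia 3/4. Within run 2, which holds the arrays of normoxia 3/4, it was -0.47, against 1.88 in run 1. Arrays of the same RNA agreed closely, with differences of 0.01 between the hypoxia repeats and 0.03 between the normoxia repeats. The fast skeletal muscle and liver marker lists had the same order over the normoxia samples as ldhbb, lowest in normoxia 1 (summed level 12.73 and 10.18 log2) and highest in normoxia 3/4 (13.88 and 13.23). Within hypoxia the liver list was, like ldhbb, lowest in hypoxia 1/4 (13.67), but it was highest in hypoxia 2 (14.58) and ldhbb in hypoxia 3. The muscle list was highest in hypoxia 1/4 (13.12), where ldhbb was lowest. The part of these cell types in the ldhbb values was not tested.

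The kinase gene pdk2b had the largest difference among the members. It stood at 7.50, 8.11 and 8.06 log2 in hypoxia samples 1/4, 2 and 3, against 10.26, 10.12 and 8.89 in normoxia samples 1, 2 and 3/4. All hypoxia samples were lower than all normoxia samples, but normoxia 3/4 lay below the other normoxia samples and closer to hypoxia 2 and 3 than to them. In deposited intensities the hypoxia arrays held 168 to 314 units and the normoxia arrays 372 to 1485. In limma it fell by 1.86 log2 (n = 3, SE 0.37, 95% interval -2.75 to -0.98, adjusted p = 0.0461), which made normoxia 3.64-fold higher.

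The size of the pdk2b difference varied between runs, which differ in both their hypoxia and their normoxia arrays. It was -2.53 in run 1, -1.02 in run 2, where normoxia was arrays 3 and 4, and -1.88 in run 3. The repeat arrays of sample 2 differed by -0.01 in hypoxia and -0.28 in normoxia, and normoxia 3 and 4 by -0.27, less than the gap between normoxia 3/4 and the other normoxia samples. The call was kept without normoxia 3/4 (-2.30, adjusted p = 0.0250) and lost without hypoxia 1/4 (0.112), hypoxia 2 (0.0754), hypoxia 3 (0.127), normoxia 1 (0.118) or normoxia 2 (0.149). The call was also lost under cyclic loess (0.0534), with a floor at the background bound (0.0911), although pdk2b itself was above that bound on every array, with no filter on dim probe sets (0.124) and with no intensity trend (0.0896). The direction was the same in all 19 alternative settings, of which many could not change it, as for ldhba.

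The other kinase gene among the members, pdk4, was dim and did not separate the groups. It stood at 5.05, 5.49 and 4.91 log2 in hypoxia samples 1/4, 2 and 3, against 5.77, 5.17 and 5.77 in normoxia samples 1, 2 and 3/4. The difference was -0.42 ± 0.24 log2 (SE, n = 3, 95% interval -1.0 to 0.16, adjusted p = 0.376). Its repeat arrays differed by 0.46 in normoxia, about as much as the groups. By run it was -0.08, -0.77 and 0.03 in runs 1, 2 and 3. No other probe set had a single symbol of pdk followed by 1 to 4, so other genes of this kinase family were not identified here. Probe sets with several symbols (135) or none (4572) were not searched for them.

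**Figure D3:**
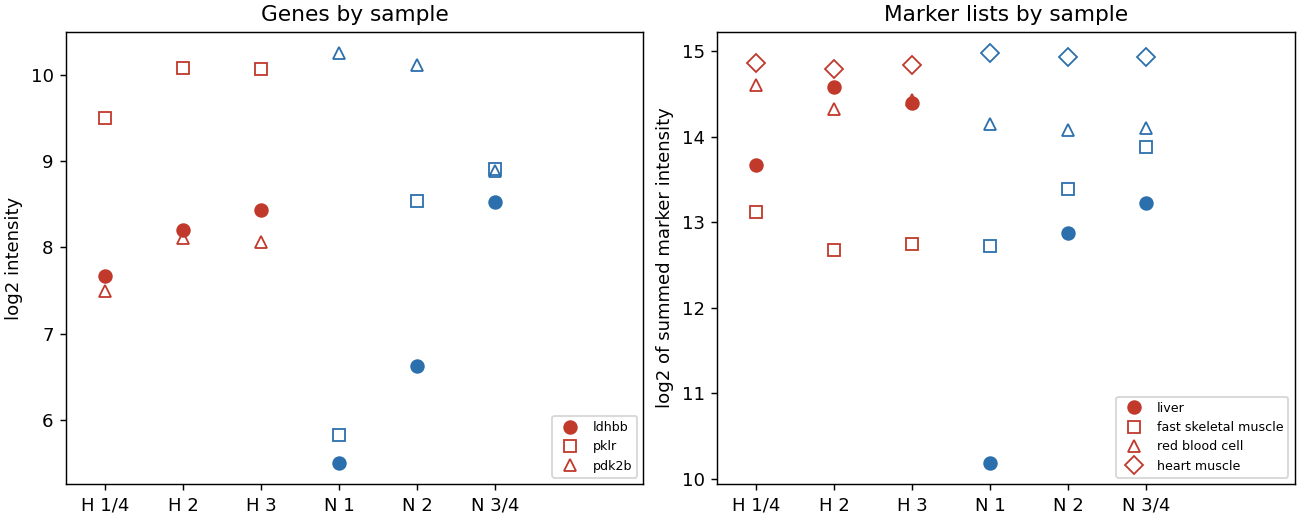
Left, log2 intensity of ldhbb, the liver and red blood cell pyruvate kinase gene pklr, and pdk2b in the counted hypoxia (H, red) and normoxia (N, blue) samples. Right, log2 of the summed intensity of 4 marker lists in the same samples. The liver list ranges from 10.18 to 14.58, ldhbb and pklr are lowest in normoxia 1 as that list is, and pdk2b is highest there.

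All 4 probe sets for catalytic subunits of the pyruvate dehydrogenase complex had differences below 0, as did 56.9% of all probe sets tested. None of the 4 passed the threshold. The E1 beta gene pdhb stood at 10.46, 10.5 and 10.5 log2 in hypoxia samples 1/4, 2 and 3, against 10.75, 10.74 and 10.67 in normoxia samples 1, 2 and 3/4. These groups did not overlap, and the difference was -0.23 ± 0.05 log2 (SE, n = 3, adjusted p = 0.0686). The E2 gene dlat, whose product carries the acetyl group on lipoate, stood at 8.90, 8.98 and 8.91 log2 in the same hypoxia samples, against 9.40, 9.16 and 9.39 in the normoxia samples. Here too the groups were apart, by -0.39 ± 0.09 log2 (SE, n = 3, adjusted p = 0.0754). Under median scaling both passed, with -0.53 for pdhb (adjusted p = 0.0179) and -0.63 for dlat (0.0290).

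The E1 alpha gene pdha1a, whose product is the target of the kinases, was read by 2 probe sets that disagreed in normoxia 2. The brighter probe set gave 9.81, 9.53 and 9.56 log2 in hypoxia samples 1/4, 2 and 3, against 10.03, 9.91 and 9.96 in normoxia samples 1, 2 and 3/4. It differed by -0.33 ± 0.09 log2 (SE, n = 3, adjusted p = 0.104), with the groups apart by counted sample. On this probe set the repeat of normoxia 2 differed from it by -0.36, more than the groups did. That repeat array, at 9.73, lay below hypoxia arrays 1 (9.77) and 4 (9.85), so the single arrays overlapped. The dimmer probe set gave 8.96, 8.98 and 8.93 log2 in the hypoxia samples, against 9.48, 8.60 and 9.54 in the normoxia samples. On it normoxia 2 was below every hypoxia sample, and the repeat of normoxia 2 differed from it by only 0.08, so the low value was measured on both arrays of that RNA. The difference for this probe set was -0.25 ± 0.24 log2 (SE, n = 3, adjusted p = 0.606), and it was not called when any 1 sample was left out, with -0.55 without normoxia 2, -0.11 without normoxia 1 and -0.08 without normoxia 3/4. In run 3, which holds the repeat of normoxia 2, it was 0.31.

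Beside these members, a list of other genes of pyruvate use was measured, with 29 probe sets for 25 genes, of which 21 probe sets for 19 genes passed the filter on low values. Of the 21, 5 fell and 0 rose at the threshold, against 3.01% and 0.968% of all probe sets tested. At an unadjusted limma p under 0.05 there were 8 lower and 2 higher, against 13.4% and 7.79% of all probe sets tested. Their median difference was -0.27 log2, against -0.05 over all probe sets tested. The 5 that fell encode mitochondrial proteins, and whether they share more than that was not tested. The list also holds genes of mitochondrial proteins that were not called, such as dld.

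The gene mpc2b encodes a subunit of the carrier that brings pyruvate into mitochondria. In limma it fell by 0.52 log2 (n = 3, SE 0.07, adjusted p = 0.0267), with 9.93, 9.84 and 9.80 in hypoxia samples 1/4, 2 and 3, against 10.37, 10.29 and 10.47 in normoxia samples 1, 2 and 3/4. The lipoic acid synthase gene lias, which makes the cofactor of E2, fell by 0.68 log2 (SE 0.10, adjusted p = 0.0269). The gene pdhx, for the protein that tethers E3 to the E2 core, fell by 0.48 log2 (SE 0.09, adjusted p = 0.0392), with 8.11, 8.25 and 8.09 in the hypoxia samples, against 8.64, 8.56 and 8.68 in the normoxia samples. The mitochondrial malic enzyme gene me3 fell by 0.54 log2 (adjusted p = 0.0390) and the citrate synthase gene cs, whose enzyme uses the acetyl-CoA that the complex makes, by 0.35 log2 (adjusted p = 0.0303). For all 5 genes the groups were apart, and the differences were below 0 in all 19 alternative settings, of which many could not change the direction. All 5 calls were lost when any 1 counted sample was left out, except that mpc2b kept its call without normoxia 2 (adjusted p = 0.0498), and 0 of the 5 were called for the deposited values. The E3 gene dld had -0.25 log2 with the groups apart and was not called (adjusted p = 0.0990).

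**Figure D4:**
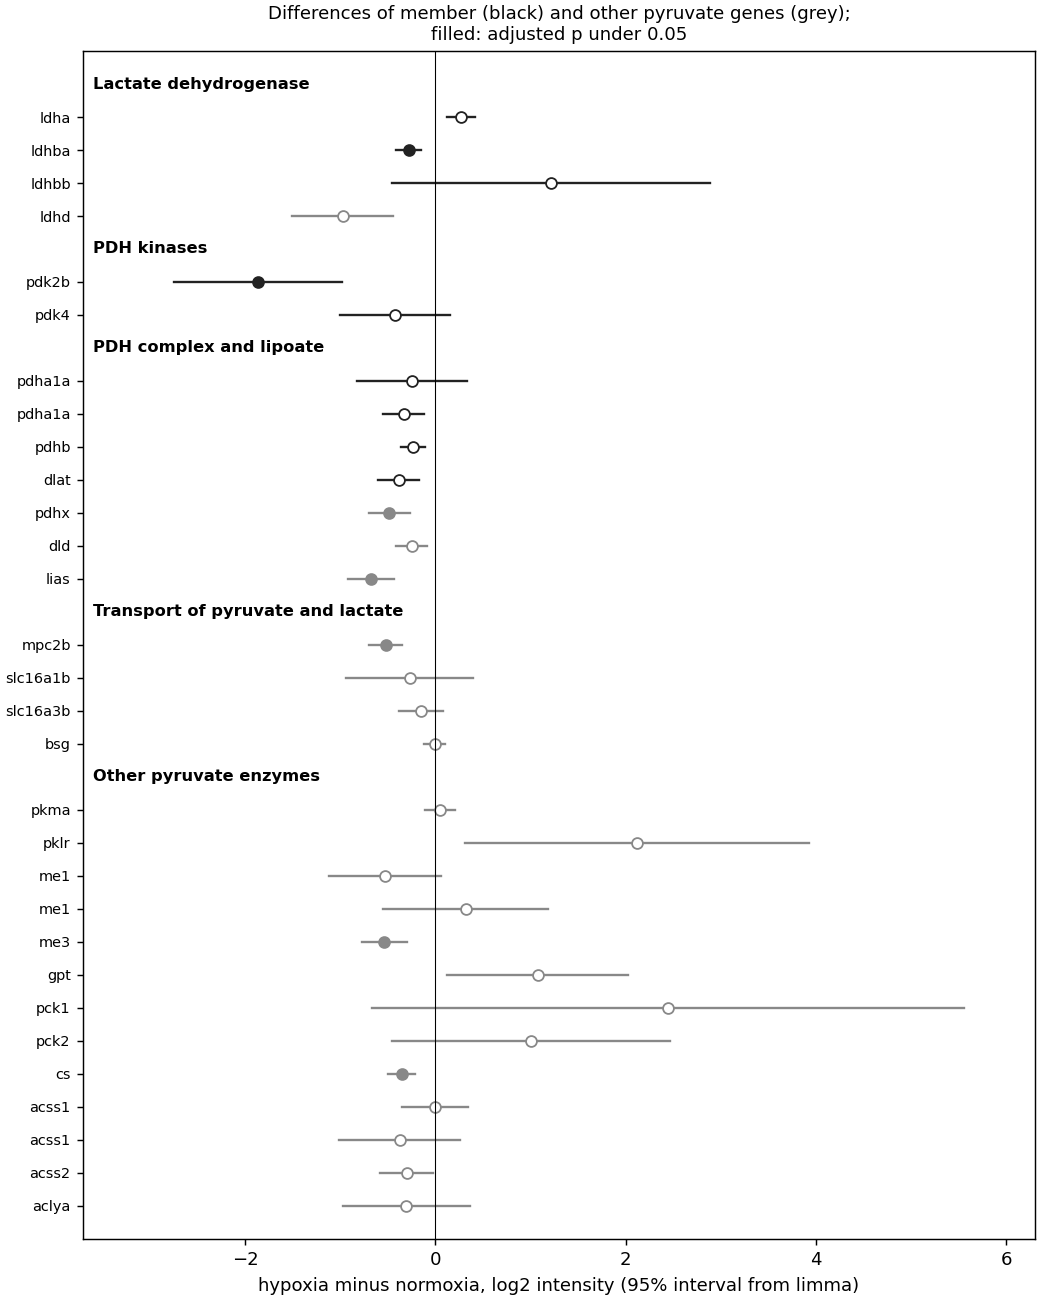
Hypoxia minus normoxia difference in log2 intensity (horizontal axis) with its 95% interval from limma for the 9 member probe sets (black) and the 21 tested probe sets of the other pyruvate genes (grey). Filled points have an adjusted p under 0.05. The filled points, ldhba, pdk2b, pdhx, lias, mpc2b, me3 and cs, all lie below 0, and the widest intervals are those of pck1 (not above background in normoxia), pklr and ldhbb.

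Genes for the transport of lactate across the cell membrane were not called. One of them, slc16a1b, had a wide interval (-0.27 log2, 95% interval -0.94 to 0.40, adjusted p = 0.632 from limma). The monocarboxylate transporter gene slc16a3b had -0.15 ± 0.10 log2 (SE, n = 3, 95% interval -0.38 to 0.08, adjusted p = 0.437), and bsg, for basigin, the partner protein that brings such transporters to the membrane, had -0.01 (95% interval -0.12 to 0.10). The muscle-type pyruvate kinase gene pkma, which makes pyruvate, had 0.05 (95% interval -0.11 to 0.20). The 8 probe sets under the filter, which were not tested, were those of pdp2, a phosphatase gene that opposes the kinases, lipt1, gpt2, pcxa, pcxb and emb and a further probe set each of bsg and gpt. The gene for D-lactate dehydrogenase, ldhd, was not above the background bound on any hypoxia array and was above it on 4 of 5 normoxia arrays (adjusted p = 0.0666), so no fold is given.

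The positive differences of over 1 log2 on the list were in genes known from the liver, and none was called. The gene pklr encodes the pyruvate kinase of liver and also that of red blood cells. It stood at 9.5, 10.08 and 10.07 log2 in hypoxia samples 1/4, 2 and 3, against 5.83, 8.54 and 8.91 in normoxia samples 1, 2 and 3/4. It differed by 2.12 ± 0.76 log2 (SE, n = 3, adjusted p = 0.179), with the groups apart and a spread of over 3 log2 within normoxia. The phosphoenolpyruvate carboxykinase gene pck1 was above the background bound on 3 hypoxia arrays and 0 normoxia arrays (adjusted p = 0.340), so no fold is given. The related gene pck2 (1.0, adjusted p = 0.403) and the alanine aminotransferase gene gpt (1.08, adjusted p = 0.192) were lowest in normoxia 1, as pklr and the liver marker list were. Within hypoxia pklr, pck2 and gpt were lowest in hypoxia 1/4, again like that list. Unlike that list, pck2 and gpt overlapped between the groups. In normoxia 3/4 pck2 (7.88) was above every hypoxia sample and gpt (6.08) was above hypoxia 1/4 (5.88). Within each group the summed red blood cell list was highest where pklr was lowest, in normoxia 1 (14.15) and hypoxia 1/4 (14.61). The part of RNA from liver or red blood cells in these values was not tested.

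The tested genes whose profile over the 6 samples was closest to a member were found by the root mean square difference of log2 values, each gene centred on its own mean. Samples share their group, so these genes share a difference between groups by construction. Closest to pdk2b were ankrd9 (0.259), ntd5 (0.310) and spry4 (0.381), an inhibitor of receptor tyrosine kinase signalling, where pdk2b itself had a root mean square of 1.05 around its mean. Closest to ldhba were acin1a (0.0221), ndufs7 (0.0251), a complex I subunit gene, and slc25a3b (0.0292), the gene of the mitochondrial phosphate carrier. Closest to ldha were edf1 (0.0225), mob4 (0.0266) and ranbp9 (0.0302). The flat profiles of ldha and ldhba, with root mean squares of 0.144 and 0.150, make small distances easy to reach.

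**Figure D5:**
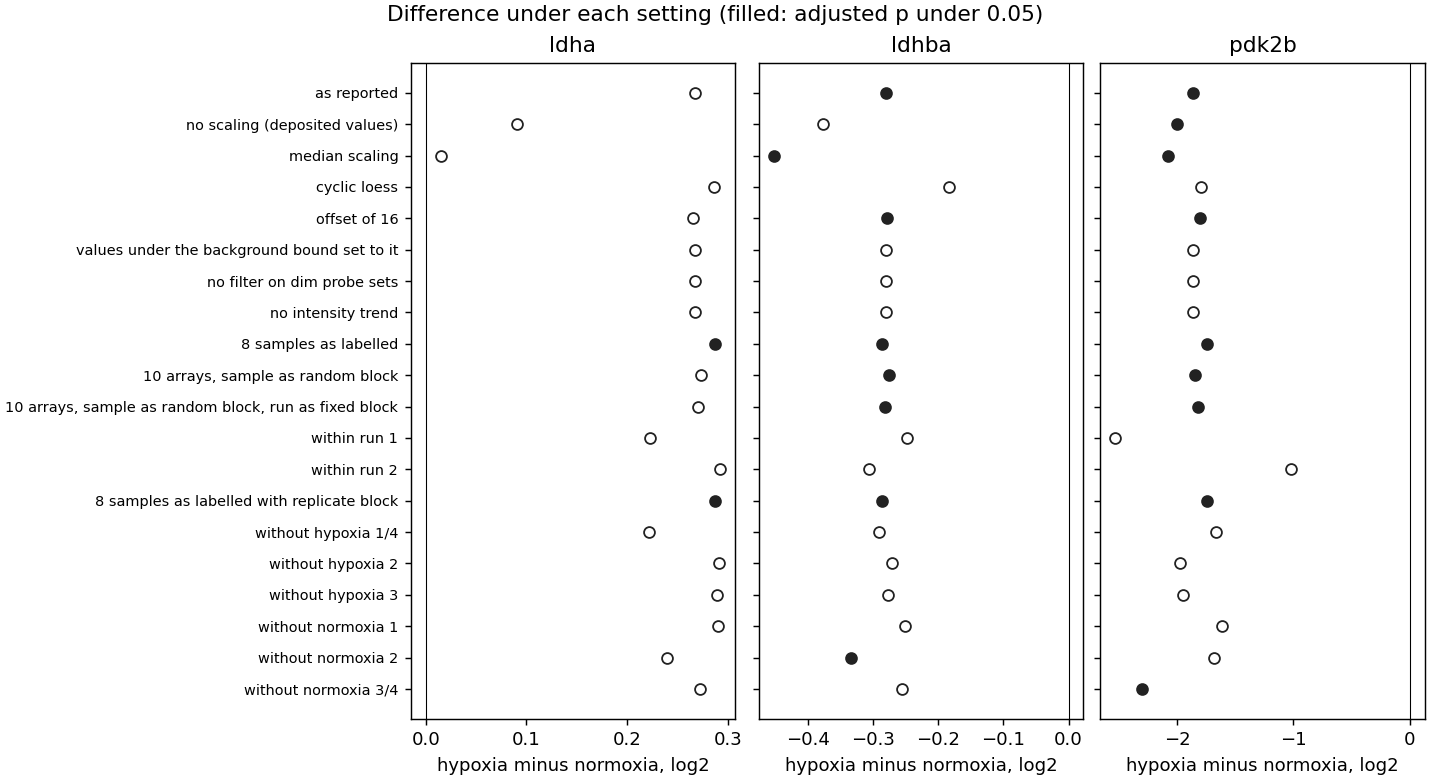
Hypoxia minus normoxia difference in log2 intensity (horizontal axis) of ldha, ldhba and pdk2b as reported and under each of 19 alternative settings (rows), filled where the adjusted p was under 0.05. The direction is the same in every row, but the rows for the floor, the filter, the trend and a left-out sample could not change it. The ldha difference approaches 0 under median scaling (0.02) and without scaling (0.09), and pdk2b ranges from -2.53 to -1.02.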

How the data were processed

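Biotin-labelled heart RNA was read on Affymetrix zebrafish arrays. The deposited table gives 1 linear intensity per probe set and array, partly below 0 (lowest -116), as in background-subtracted signals; how the authors made it is not stated in the labels. The records of each array, deposited in another unit (text), gave the hybridization runs. Gene names are those of the platform table (10795 probe sets had 1 symbol, 135 several, 4572 none).

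Array log2 medians differed by 0.50, so intensities were quantile normalized, 1 was added, results under 1 were set to 1, and log2 was taken. After leaving out 115 control probe sets and the lowest 30% by mean (under 4.02), 10851 were tested in limma 3.58.1 (R 4.3.3; lmFit, eBayes with an intensity trend), with Benjamini-Hochberg adjustment over all of them. The background bound is 2 times the SD of 13.8 estimated from negative values. The method was tested on simulated data. Figures were drawn in Python 3.11.15 with matplotlib 3.10.9.

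Members and lists were chosen with earlier results of these data known. Named genes are all members, the pyruvate list, and the 3 genes closest in profile to ldha, ldhba and pdk2b. The list's name patterns also took pkmyt1, a cell division kinase, and a delta D gene, which were left out for what they are. Probe sequences were not used, so cross-hybridization between ldhba and ldhbb was not tested. Alternatives changed the scaling, offset, background floor, filter, trend, counting of samples and run.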

Additional observations from a re-analysis of the deposited data

How the results depend on the processing

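The number of arrays and of independent samples limits the precision, and the calls rest on a spread pooled over probe sets. Against 432 calls among all probe sets, of which 2 were members and 5 other pyruvate genes, all lower, the alternatives gave the following counts. Nearest to 432 were the offset of 16 with 437 calls, cyclic loess with 370 and the background floor with 363. Calls over all probe sets were 103 for the deposited values, 790 under median scaling, 171 with no filter, 2 with no intensity trend, 1397 with the 8 samples as labelled, 1013 for 10 arrays with the sample as a random block, 870 with the run added, 0 within run 1 (1655 at unadjusted p under 0.05 in limma) and 11 within run 2. Members called lower were 1 for the deposited values (pdk2b) or with the background floor (pdhb, adjusted p = 0.0448), 5 under median scaling or with 8 samples as labelled, and 0 under cyclic loess, with no filter, with no trend and within runs 1 and 2. The offset of 16 kept 2, and the fits of 10 arrays with the sample as a random block gave 3, with or without the run. With 8 samples as labelled ldha was also called higher, 1 member. Other pyruvate genes called lower were 0 for the deposited values, with no trend and within either run, and 3 with no filter. They were 4 under cyclic loess, 5 with the offset or the floor, and 6 under median scaling. With 8 samples as labelled or 10 arrays with the random block they were 7, and 6 with the run added. Leaving out 1 counted sample gave 1 to 226 calls in all, 0 to 1 among members and 0 to 1 among the other genes, each a fit to fewer samples. The ratio of ldha to ldhba differed by 0.47 to 0.57 over the scalings, the offset, the floor, the 8 samples as labelled and each sample left out (up to 0.62 within single runs). For the 8 samples as labelled (0.57), where near-identical arrays count separately, the exact permutation p was 0.0286. This is the smallest value that 4 against 4 samples allow, so it too adds nothing to the separate results of ldha and ldhba. The difference of ldhbb turned to -0.47 within run 2. Beyond the number of samples fitted, the cause of these changes was not tested.

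The label numbers 1 to 4 were tried as a replicate block on the 8 samples as labelled. This gave 1071 calls in all, with 3 members lower, 1 higher and 7 other pyruvate genes lower. Same-numbered samples correlated in their deviations from the group means by 0.18, 0.09, 0.08 and -0.09, and 5 of 8 samples correlated best with their own number. In the others, hypoxia 3 and normoxia 4 correlated best with each other, and hypoxia 4 with normoxia 1. With hypoxia 1 and 4 and normoxia 3 and 4 merged, as in the counted samples, these are matches as well. The main fit used no pairing, and these values do not exclude one. The block that was tried followed the label numbers, so a pairing of the counted samples was not fitted.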
